A study of Mus musculus with 18 samples.

Results

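The replication-dependent histone genes are the clustered genes that supply the histones on which newly copied DNA is wrapped. They were taken as every gene whose symbol begins with Hist1h, Hist2h, Hist3h or Hist4h, which gave 70 of the 54752 genes in the count table: 6 for the linker histone H1, and 20 for H2A, 19 for H2B, 12 for H3 and 13 for H4, the core histones of the nucleosome. The annotation (GRCm38) places 56 of them in the Hist1 cluster on chromosome 13, 10 in Hist2 on chromosome 3, 3 in Hist3 on chromosome 11 and 1, Hist4h4, on chromosome 6. It lists 67 as protein-coding and 3 (Hist1h2aj, Hist1h2al and Hist3h2bb-ps) as pseudogenes, and gives 65 a single exon.

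Livers of 18 male C57BL/6 mice were compared, 6 in each of 3 groups, sampled in week 22 of an experiment that began with 45 mice (15 per group) at 6 weeks of age. Control mice were injected with olive oil into the peritoneum 2 times per week and had water by gavage every day. The CCl4 group had carbon tetrachloride (CCl4), a solvent that damages hepatocytes, injected on the same schedule, with water by gavage. The third group, called CCl4 + PTH here, had the CCl4 injections and PTH by gavage every day. The submitters write both PTH and PZH for Pien Tze Huang, a preparation of traditional Chinese medicine, and the names were treated as synonyms. The submitters call the CCl4 mice a liver cancer model. Whether the sequenced piece held tumour, and the time since the last injection, are not stated in the labels. No group had PTH without CCl4.

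Replication-dependent histone genes are transcribed mainly in S phase, when DNA is copied. Their messenger RNAs carry no poly(A) tail. They end instead just after a short stem-loop, which is bound by the stem-loop binding protein Slbp, and they are broken down when DNA synthesis stops. Most cells of an adult liver divide rarely, and hepatocytes re-enter the cell cycle after injury. These messages can be counted here because the libraries were made by removing ribosomal RNA and not by selecting poly(A) tails. In bulk tissue, more cells in S phase and more histone RNA per cell cannot be told apart, nor can a change in 1 cell type from a change in the share of that cell type.

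The stem-loop is what sets this RNA apart, so the 3′ ends of the gene models were read. A 16-base pattern of the stem-loop was searched on the coding strand within 100 bases after the stop codon, with GG and CC at its ends and CTT, T and A at fixed places between them. It was present in 46 of the 70 histone genes, 21 to 58 bases after the stop codon (median 31). Of the 20981 coding genes with a model past the stop codon, 62 (0.296%) held it, 16 of them outside the 70. The same 16-base form stood in 26 genes of H1, H2A, H2B and H3, and the forms in H4 genes were in no gene of another type. The following are the genomic coding strands (GRCm38), with the 16-base stem-loop in capitals and 5 bases on each side, for genes that recur in the results.

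Hist1h1c: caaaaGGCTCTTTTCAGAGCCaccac
Hist1h2ac: ccaaaGGCTCTTTTCAGAGCCcccac
Hist1h2ap: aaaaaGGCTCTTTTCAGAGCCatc
Hist2h2ac: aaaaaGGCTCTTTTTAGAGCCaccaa
Hist1h2bk: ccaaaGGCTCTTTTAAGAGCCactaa
Hist1h3e: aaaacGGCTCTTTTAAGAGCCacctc
Hist1h4c: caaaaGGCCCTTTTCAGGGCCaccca
Hist1h4h: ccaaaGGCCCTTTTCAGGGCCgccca

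The H1, H2A, H2B and H3 forms shown pair as GGCTCT with AGAGCC, and the H4 forms as GGCCCT with AGGGCC. The Hist1h2ap model ends 3 bases after its stem-loop. Of the 24 genes without the motif, 15 had models that end at most 2 bases after the stop codon and 3 were pseudogenes without an annotated stop codon, so nothing could be read there. The other 6 (Hist1h1a, Hist1h2bc, Hist1h2bq, Hist1h2br, Hist2h2be and Hist2h3b) had longer models without these letters. Of those, the coding models of Hist1h2bc (742 bases past the stop codon), Hist1h2bq and Hist1h2br (up to 823 bases each) and Hist2h2be (2192 bases) run far beyond the usual place of the stem-loop.

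Many H2A and H2B genes lie head to head and share the DNA between their starts. There were 14 such pairs, with 172 to 305 bases between the starts. RefSeq promoter windows (GRCm38.p6, 250 bases before to 50 after each start) were matched for 61 of the 70 genes and searched on both strands. The octamer ATTTGCAT (ATGCAAAT on the other strand), a recognition sequence of the Oct1 factor, was in 13 of 61 windows (21.3%), 7 of 18 for H2A and 6 of 16 for H2B, and in 1.74% of all 32851 windows. CCAAT (or ATTGG) was in 52 (85.2%), in every H1, H2A, H2B and H3 window and in 3 of 12 for H4, against 37.4% of all windows. TATAAA (or TTTATA) was in 34 (55.7%), against 13.6%. A match is a description of letters and not a site. The window of Hist1h2bk (chr13:22035571-22035870, plus strand) is shown with these motifs in capitals because it covers nearly all of the DNA between the starts of Hist1h2bk and Hist1h2ah, the gene with the widest spread of log2 CPM between livers of a group among the 62 tested.

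Hist1h2bk: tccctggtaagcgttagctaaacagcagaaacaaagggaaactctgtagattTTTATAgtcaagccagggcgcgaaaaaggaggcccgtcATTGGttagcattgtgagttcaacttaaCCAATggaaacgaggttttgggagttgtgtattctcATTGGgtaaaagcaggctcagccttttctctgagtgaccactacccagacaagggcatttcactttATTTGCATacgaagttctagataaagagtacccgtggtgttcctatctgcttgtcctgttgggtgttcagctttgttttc

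Total estimated counts ran from 67.2 M to 118.9 M per library, of which 10075 to 39194 were on histone genes. Of 70 genes, 62 passed the filter on low counts. Hist1h2aa, Hist2h2aa2, Hist2h2bb and Hist2h3b had 0 counts in every library, and Hist1h1t, Hist1h2al and Hist1h2ba had 65, 30 and 29 counts over all libraries. Hist2h2aa1 had 3971 counts, 2875 of them in CCl4 + PTH 6, and 0 in 13 libraries. Genes that overlap Hist2h2aa1 and its twin Hist2h2aa2 (Gm20632, Gm20633 and Gm20634) together held 5.55 to 56.3 CPM (counts per 1 M, scaled by TMM) per library. Whether counting used strand is not stated in the labels, so the H2A RNA of this locus may be counted under those names. The 20 H2A genes each have an annotated gene on the opposite strand, mostly with few or no counts.

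Histone copies are alike enough to exchange reads: in 21 of the 70 genes over 50% of 150-base windows occur unchanged in another histone gene. The median share was 58.9% for H2A, 28.8% for H3, 17.4% for H2B, 12.5% for H4 and 0 for H1. Values of single H2A and H3 genes are therefore less certain than the sums by type. The labelled tissue fitted its markers, since the 7 hepatocyte markers found were present in every library, with a summed level of 21224 CPM or more.

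On a per-length scale (TPM, transcripts per 1 M), the highest histone genes were Hist1h4h (60.9 TPM on average), Hist1h2bc (47.6) and Hist1h1c (40.8), followed by Hist1h4m (25.997), Hist1h4n (22.6) and Hist1h2bg (19.3). Few genes held most of a type. Hist1h1c made 52.5% of the H1 CPM, Hist1h1e 28.0% and Hist1h1d 14.4%. Hist1h2bc alone made 58.9% of H2B. H4 was spread more evenly, with 24.7% from Hist1h4h, and so were H3 (28.8% from Hist1h3e) and H2A (24.7% from Hist3h2a and 22.5% from Hist2h2ac).

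Summed over their genes, the types with the largest ratio of the CCl4 to the control mean were H3 and H2A, and their livers overlapped between groups. H3 was 9.06 ± 2.31 CPM (SD, n = 6) in control, 19.8 ± 13.4 in CCl4 and 16.3 ± 10.5 in CCl4 + PTH livers. H2A was 11.53 ± 4.37, 18.2 ± 11.3 and 17.8 ± 16.1 CPM, or 10.04 ± 3.69, 17.3 ± 11.3 and 13.9 ± 9.99 CPM without Hist2h2aa1. H1 was 51.0 ± 11.6, 61.2 ± 14.6 and 58.45 ± 20.6 CPM. H2B (48.4 ± 7.63, 44.1 ± 11.3 and 45.9 ± 13.9 CPM) and H4 (63.9 ± 6.67, 58.6 ± 17.0 and 58.0 ± 26.1 CPM) differed in mean by less than their SD in the CCl4 groups. The ratio of the CCl4 mean to the control mean was 2.19 for H3, 1.58 for H2A, 1.199 for H1, 0.91 for H2B and 0.92 for H4, and 1.098 for all histone genes together. The sums carry no test, since they are scores over a chosen list.

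**Figure D1:**
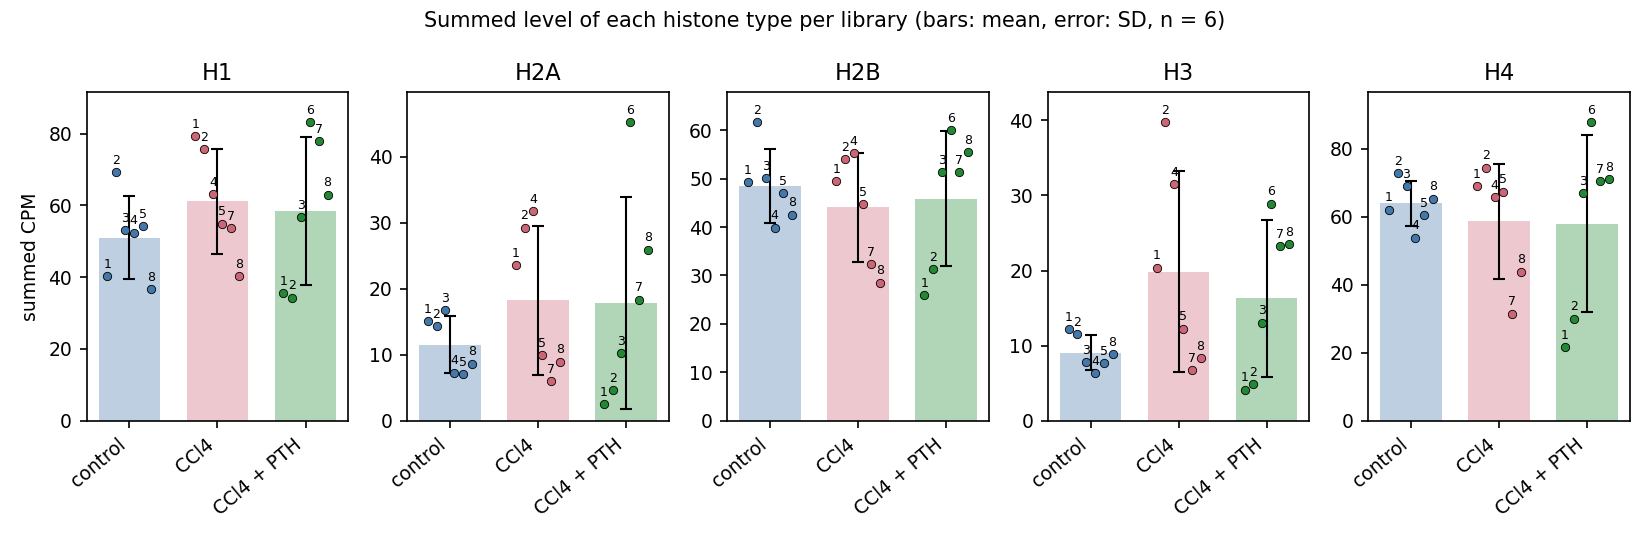
Summed CPM of all genes of each histone type, by group; each point is 1 liver with its label number, bars are means and error bars SD (n = 6), and the vertical scale differs between panels. In the CCl4 group, livers 1, 2 and 4 lie above livers 5, 7 and 8 for H2A and H3, and in the CCl4 + PTH group livers 1 and 2 are lowest in every panel.

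CCl4 against control asks what repeated CCl4 did to these genes. Of the 62 histone genes tested, 23 rose and 3 fell (edgeR quasi-likelihood test, adjusted p under 0.05), against 26.3% of all 21840 genes tested that rose and 21.2% that fell (47.4% in either direction). The median log2 fold change was 1.07 over the 62 genes and 0.05 over all genes, and 51 of the 62 estimates were positive. By type, 3 of 5 H1, 3 of 16 H2A, 10 of 17 H2B, 5 of 11 H3 and 2 of 13 H4 genes rose. The genes that fell were 1 of 17 for H2B and 2 of 13 for H4. The median log2 fold change was 1.77 for H3, 1.59 for H2A, 1.51 for H2B, 1.01 for H1 and 0.40 for H4.

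Without TMM scaling, by library size only, 40 of the 62 genes rose and none fell, beside 51.6% of all genes that rose and 4.86% that fell. There the median of all genes moved up by 0.58 on the log2 scale. A change of scaling shifts all genes by nearly the same amount. That the histone genes stood 1.02 above the median of all genes under both scalings follows from this and is no separate support. With the 4 libraries that had under 100 CPM of Rmrp left out, a choice made after seeing the data and described further on, 42 of 63 genes rose and 4 fell, beside 24.9% and 18.9% of all genes. They included all 23 and all 3 genes of the fit over 18 libraries.

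Linker histone H1 binds the DNA between nucleosomes. Hist1h1b (H1.5, chr13:21779883-21780625) had the smallest p of all histone genes. Its level was 0.185 CPM in the lowest control liver, 0.366 at the median and 0.672 in the highest, against 1.22, 2.63 and 3.41 in CCl4 livers. No CCl4 liver overlapped a control liver, and the log2 fold change was 2.62 ± 0.31 (SE; edgeR adjusted p = 2.4e-06). Hist1h1d (H1.3) ran from 2.47 to 6.78 CPM (median 5.05) in control and from 6.75 to 11.9 CPM (median 9.78) in CCl4 livers. These groups touched at 1 liver of each, and the log2 fold change was 1.01 ± 0.23 (edgeR adjusted p = 0.0013). Hist1h1a (H1.1) also rose, by 1.05 ± 0.26 on the log2 scale.

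The abundant H1 genes behaved otherwise. Hist1h1c (H1.2) had 16.01, 24.7 and 30.8 CPM in the lowest, median and highest control liver and 21.9, 33.8 and 46.5 CPM in CCl4 livers. The log2 difference of 0.52 ± 0.22 did not pass (edgeR adjusted p = 0.059). Hist1h1e (H1.4) had 15.7, 19.7 and 31.2 CPM in control and 7.17, 13.5 and 17.6 CPM in CCl4 livers, a log2 difference of -0.68 ± 0.34 (edgeR adjusted p = 0.10). It passed as lower with the low-Rmrp libraries left out (-0.62 ± 0.19, adjusted p = 0.017), with Rmrp and Rpph1 as a covariate (-0.56, adjusted p = 0.020) and without CCl4 + PTH 1 (-0.72, adjusted p = 0.033). Under library sizes only, where all genes move up, Hist1h1e was at -0.08 ± 0.30 and did not pass. Hist1h1c passed there as higher (1.13 ± 0.22, edgeR adjusted p = 0.00024). The model of Hist1h1e overlaps those of Hist1h2be and Gm11398 on the same strand, and only in part for Hist1h2be. Of the Hist1h1e windows 19.5% also occur in Hist1h2be, so some reads may have been split between Hist1h1e and Hist1h2be. Gm11398 had at most 0.0612 CPM.

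H2A and H2B pair as dimers in the nucleosome. Among H2B genes the near-identical Hist1h2br and Hist1h2bq had the smallest p. Hist1h2br had 0.362, 0.479 and 0.666 CPM in the lowest, median and highest control liver and 1.19, 1.77 and 3.10 CPM in CCl4 livers, with no overlap (log2 fold change 2.05 ± 0.29, edgeR adjusted p = 1.5e-05). Hist1h2bq had 0.332, 0.379 and 0.514 CPM against 0.837, 1.20 and 1.96 CPM, also without overlap (1.73 ± 0.27, adjusted p = 3.8e-05). Since 95.2% of the Hist1h2bq windows and 89.7% of the Hist1h2br windows occur in another histone gene, these results may share reads. Hist1h2bk (1.51 ± 0.31) and Hist1h2bl (1.96 ± 0.42) rose as well, and the lowest CCl4 liver (0.88 CPM for Hist1h2bk, 0.386 for Hist1h2bl) lay close to the highest control liver (0.897 and 0.382 CPM).

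Hist1h2bc, the most abundant H2B gene, moved the other way. Its level was 27.1, 33.5 and 45.0 CPM in the lowest, median and highest control liver and 16.3, 21.6 and 24.8 CPM in CCl4 livers. Every CCl4 liver was below every control liver, and the log2 fold change was -0.70 ± 0.19 (edgeR adjusted p = 0.0042). Under library sizes only, where all genes move up, it was -0.12 ± 0.18 and did not pass. The Hist1h2bc model has no stem-loop and ends 742 bases past the stop codon. The next most abundant, Hist1h2bg (-0.19 ± 0.24) and Hist1h2be (0.24 ± 0.21), did not pass. The largest estimate was for Hist3h2ba, at 0 in 5 of 6 control livers and up to 0.378 CPM in CCl4 livers (3.61 ± 0.99, adjusted p = 0.0056), and its size depends on how such zeros are handled.

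For H2A, 3 of 16 genes passed: Hist1h2af (2.90 ± 0.95, adjusted p = 0.017), Hist1h2ak (2.68 ± 0.94, adjusted p = 0.026) and Hist3h2a (0.62 ± 0.24, adjusted p = 0.038). Hist1h2af had 0.0306, 0.0598 and 0.174 CPM in the lowest, median and highest control liver and 0.0966, 0.478 and 1.67 CPM in CCl4 livers. The 3 highest CCl4 livers (1, 2 and 4, at 0.841 to 1.67 CPM) were far above controls and the other 3 (0.0966 to 0.115 CPM) lay among them. Hist3h2a, the most abundant H2A gene in counts, had 1.95, 3.18 and 4.22 CPM in control and 4.18, 4.84 and 6.33 CPM in CCl4 livers. It lies beside Trim17, which overlaps it on the same strand. Hist2h2ac (-0.05 ± 0.71) and Hist2h2ab (-0.28 ± 0.71) had the lowest H2A estimates and did not pass.

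H3 and H4 form the core tetramer of the nucleosome. Hist1h3h had the largest H3 estimate: 0.0586, 0.164 and 0.305 CPM in the lowest, median and highest control liver and 0.194, 0.897 and 3.06 CPM in CCl4 livers (log2 fold change 2.72 ± 0.70, edgeR adjusted p = 0.0036). CCl4 livers 7 and 8 lay within the control range and the other 4 above it. Hist1h3g (2.30 ± 0.55), Hist1h3i (2.16 ± 0.63), Hist1h3d (2.03 ± 0.60) and Hist1h3b (1.77 ± 0.54) also rose. Of the 3 H3 genes with the highest mean CPM only Hist1h3b passed, and Hist1h3e (0.51 ± 0.48) and Hist1h3f (0.88 ± 0.55) did not. Those passed with the low-Rmrp libraries left out (0.74 ± 0.29 and 1.199 ± 0.44). Hist1h3a (0.27 ± 0.49) had the lowest H3 estimate.

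Of the 13 H4 genes, 2 rose and 2 fell (15.4% each), below the 26.3% and 21.2% of all genes. Hist1h4h, the highest histone gene per length, had 15.5, 21.7 and 27.5 CPM in the lowest, median and highest control liver and 4.41, 11.5 and 15.5 CPM in CCl4 livers (log2 fold change -0.996 ± 0.37, edgeR adjusted p = 0.034). Hist1h4c fell from 6.31, 8.32 and 10.5 CPM to 3.21, 5.25 and 6.58 CPM (-0.71 ± 0.24, adjusted p = 0.022). For Hist1h4h the groups met only at their extremes, and for Hist1h4c CCl4 livers 1 and 5 lay above the lowest control liver. Under library sizes only these were -0.42 ± 0.34 and -0.12 ± 0.22 and neither passed. Hist1h4k (1.29 ± 0.48, adjusted p = 0.032) and Hist1h4f (0.87 ± 0.25, adjusted p = 0.0083) rose. Hist1h4d (-0.28 ± 0.18) and Hist2h4 (0.40 ± 0.20) did not pass.

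CCl4 + PTH against CCl4 asks what the preparation changed in livers that also had CCl4. None of the 62 histone genes passed in either direction (edgeR quasi-likelihood test), beside 7.1% of all genes that rose and 4.95% that fell (12.1% in either direction). None had an unadjusted p under 0.05, and DESeq2 called none and had 1 gene at that level. The smallest adjusted p was 0.20, for Hist1h2bc. The median SE was 0.49 over the histone genes and 0.24 over all genes, so the lack of calls does not show that histone genes changed less. With the replicate number as a block none of the 62 passed, and 0.19% of all genes rose and 0.19% fell. The median log2 difference was -0.26 over the histone genes and -0.03 over all genes, and 14 of the 62 estimates were positive. By type the median was -0.36 for H2B, -0.33 for H2A, -0.29 for H3, -0.02 for H1 and 0.00 for H4. With the low-Rmrp libraries left out the median over histone genes was 0.00. It was -0.01 without CCl4 2 and -0.02 without CCl4 4, and ran from -0.43 to -0.06 without any other single library.

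Hist1h2bc had 14.5, 29.8 and 34.2 CPM in the lowest, median and highest CCl4 + PTH liver, against 16.3, 21.6 and 24.8 CPM with CCl4 alone. Livers 1 and 2 of the treated group were at 14.5 and 19.8 CPM and the other 4 at 29.6 to 34.2 CPM, above all CCl4 livers. The log2 difference was 0.38 ± 0.18 (edgeR adjusted p = 0.20) in all libraries. It was 0.52 ± 0.15 (adjusted p = 0.022) without CCl4 + PTH 1, 0.57 ± 0.14 (adjusted p = 0.020) without the low-Rmrp libraries, and 0.45 ± 0.14 (adjusted p = 0.035) with Rmrp and Rpph1 as a covariate. Over the single libraries left out in turn, the adjusted p ran from 0.022 to 0.38. Hist1h1b, the clearest gene in CCl4 livers, had 1.74, 2.32 and 3.45 CPM with PTH, and its difference from CCl4 was -0.01 ± 0.28 on the log2 scale.

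CCl4 + PTH against control shares its livers with both comparisons above. Here 16 of the 62 histone genes rose and 2 fell, beside 17.4% and 10.3% of all genes (27.7% in either direction), with a median log2 fold change of 0.94 against 0.04 for all genes. The genes that rose were 3 of 5 for H1, 0 of 16 for H2A, 8 of 17 for H2B, 4 of 11 for H3 and 1 of 13 for H4, and both that fell were H4. Hist1h1b (2.60 ± 0.31, edgeR adjusted p = 1.1e-05), Hist1h2br (1.60 ± 0.29, adjusted p = 0.00051) and Hist1h2bq (1.33 ± 0.27, adjusted p = 0.0012) had the smallest p. Hist1h4d, at 9.56 to 12.1 CPM in control and 4.2 to 9.67 CPM in CCl4 + PTH livers, fell by 0.53 ± 0.18 on the log2 scale (adjusted p = 0.033), and Hist1h4c by 0.67 ± 0.24 (adjusted p = 0.046). Under library sizes only, 26 rose and none fell, beside 43.8% and 1.62% of all genes, with Hist1h4d at -0.05 ± 0.20 and Hist1h4c at -0.17 ± 0.22. The count that rose was 9 of 63 without control 4 (15.3% of all genes) and 9 of 63 without CCl4 + PTH 8 (14.6%). It was 10 of 62 without CCl4 + PTH 6 (15.9%), so these counts were near the share of all genes. It was 25 of 63 without CCl4 + PTH 1 (15.9%) and 29 of 63 without the 4 low-Rmrp libraries (14.0%).

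Livers of the same group differed more in histone RNA than in most other RNA. The SD of log2 CPM within groups, pooled over the 3 groups, had a median of 0.97 over the 62 histone genes and 0.41 over all genes tested. By type it was 1.66 for H2A, 1.09 for H3, 0.74 for H4, 0.71 for H2B and 0.45 for H1. Low counts widen such an SD, so genes were also compared at like level. Between 0.5 and 2 CPM the median was 0.51 over 4205 genes, 1.85 over 6 H2A genes, 1.11 over 9 H3 genes, 0.70 over 10 H2B genes, 0.69 over 4 H4 genes and 0.49 over 2 H1 genes. Under 0.5 CPM it was 0.88 over 5648 genes and 1.64 over 8 H2A genes. Hist1h2ah (2.12) and Hist2h3c1 (2.02) had the widest spread, and Hist4h4 (0.32), Hist1h4d (0.34) and Hist1h2bc (0.36) the narrowest.

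Most H2A genes were high or low in the same livers. In CCl4 livers the H2A sum was 23.6, 29.3 and 31.7 CPM in livers 1, 2 and 4 and 9.90, 5.99 and 8.94 CPM in livers 5, 7 and 8. In CCl4 + PTH livers it was 45.3, 18.4 and 25.9 CPM in livers 6, 7 and 8, 10.2 CPM in liver 3, and 2.47 and 4.62 CPM in livers 1 and 2. Of the 45.3 CPM in liver 6, 22.4 CPM were Hist2h2aa1, and without that gene liver 8 was highest at 25.9 CPM. Of the 16 H2A genes tested, 15 lay below their group mean in CCl4 5, CCl4 7, CCl4 + PTH 1 and CCl4 + PTH 2. All 16 lay above it in CCl4 4 and CCl4 + PTH 7. The highest liver of a group exceeded the lowest 2.39, 5.30 and 18.3 times for H2A in control, CCl4 and CCl4 + PTH livers, 1.92, 5.94 and 7.01 times for H3, 1.35, 2.37 and 4.06 times for H4, 1.55, 1.94 and 2.32 times for H2B, and 1.89, 1.97 and 2.43 times for H1. The ratio of the H2A to the H2B sum ran from 0.15 to 0.33 in control, 0.19 to 0.57 in CCl4 and 0.0955 to 0.755 in CCl4 + PTH livers. Without Hist2h2aa1 the H2A range in CCl4 + PTH livers was 10.5 times and the highest ratio 0.467.

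**Figure D2:**
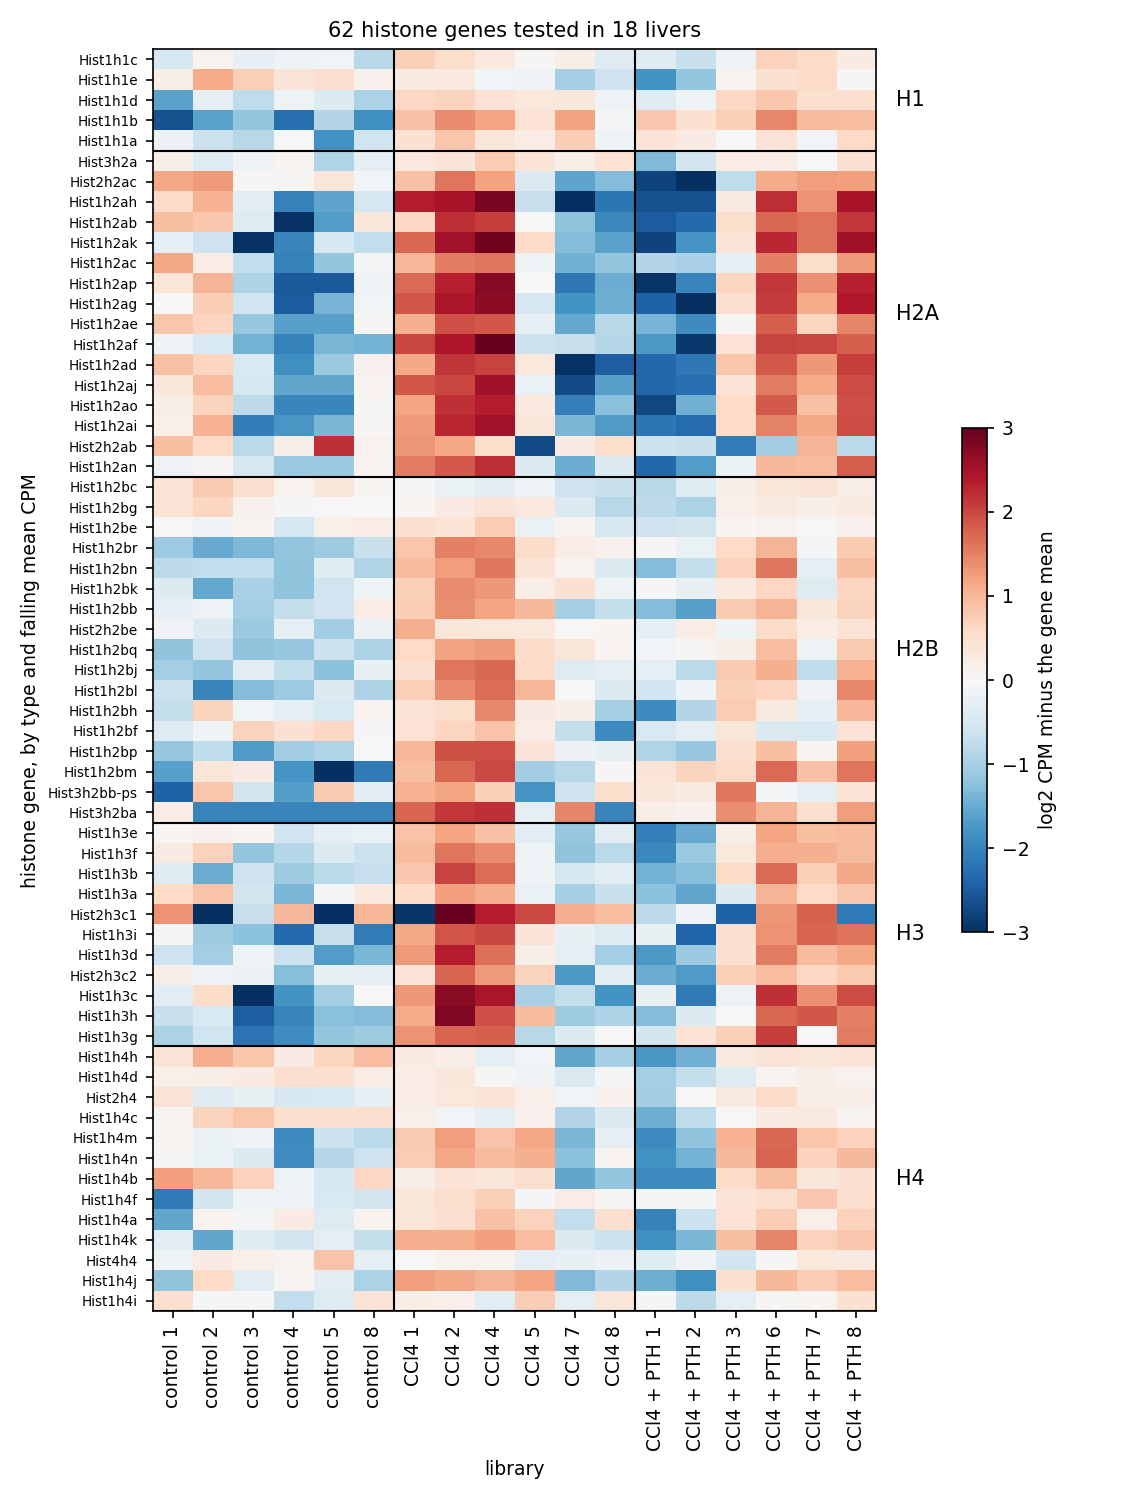
Log2 CPM of the 62 histone genes tested (rows, by type and falling mean level) in 18 libraries (columns, by group), minus the mean of each gene; colours end at 3 above or below. Most H2A and H3 rows turn from red in CCl4 livers 1, 2 and 4 to blue in livers 7 and 8, and from blue in CCl4 + PTH livers 1 and 2 to red in livers 6, 7 and 8, while Hist3h2a, Hist2h2ab and Hist2h3c1 differ from that pattern.

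Other RNAs without a poly(A) tail were examined beside this pattern, chosen after it was seen. Rmrp and Rpph1 are the RNA parts of the ribonucleases MRP and P. Rmrp was 34.1 and 36.3 CPM in CCl4 + PTH 1 and 2, 52.1 CPM in CCl4 7 and 55.0 CPM in control 1, and 111 to 273 CPM in the other 14 libraries. Rpph1 was 121 to 295 CPM in the same 4 libraries and 362 to 818 CPM in the others. Of these 4, the H2A sum was low in its group in CCl4 7 and CCl4 + PTH 1 and 2, but in control 1 (15.1 CPM) it was among the higher ones. CCl4 8, with a low H2A sum, had 112 CPM of Rmrp and 362 CPM of Rpph1. CCl4 + PTH 6 had 111 CPM of Rmrp and 554 CPM of Rpph1. Its H2A sum was the highest of all libraries (45.3 CPM, of which 22.4 CPM were Hist2h2aa1). Rn7sk, another such RNA, ranged over 811 to 1023 CPM in the 4 libraries and 856 to 1659 CPM in the others. The share of counts on ribosomal RNA was 30.6% to 39.2% in the 4 and 36.3% to 55.8% in the others. The part of RNA quality or of ribosomal RNA removal in the histone values was not tested beyond these fits.

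With those 4 libraries left out, H2A ranged 3.55-fold in CCl4 and 4.43-fold in CCl4 + PTH livers, and H3 4.79-fold and 2.21-fold. The H2A ranges were 4.39-fold and 2.54-fold when Hist2h2aa1 was also left out. In CCl4 + PTH livers H4 ranged 1.31-fold and H2B 1.17-fold. By type, 12 of 17 H2A, 9 of 11 H3, 11 of 17 H2B, 7 of 13 H4 and 3 of 5 H1 genes then rose in CCl4 against control. Of all genes 24.9% rose in that fit. The choice removes CCl4 7 and CCl4 + PTH 1 and 2, which had the lowest H2A sums of their groups. Narrower H2A ranges in those groups follow from that, and the larger counts may too. With Rmrp and Rpph1 as a covariate in all libraries, 28 of 62 rose and 4 fell, beside 25.9% and 20.9% of all genes.

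The cell division marker Mki67 did not follow the split. It was 1.61 to 2.66 CPM in control livers. In CCl4 livers it was 18.6, 19.6 and 21.0 CPM in livers 1, 2 and 4 and 9.76, 18.2 and 20.8 CPM in livers 5, 7 and 8. In CCl4 + PTH livers it was 10.9 and 11.8 CPM in livers 1 and 2 and 10.96 to 15.5 CPM in the others. CCl4 8 thus had nearly the highest Mki67 and one of the lowest H2A and H3 sums of its group. Mki67 is 1 gene, and whether S-phase genes followed the split was not tested.

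**Figure D3:**
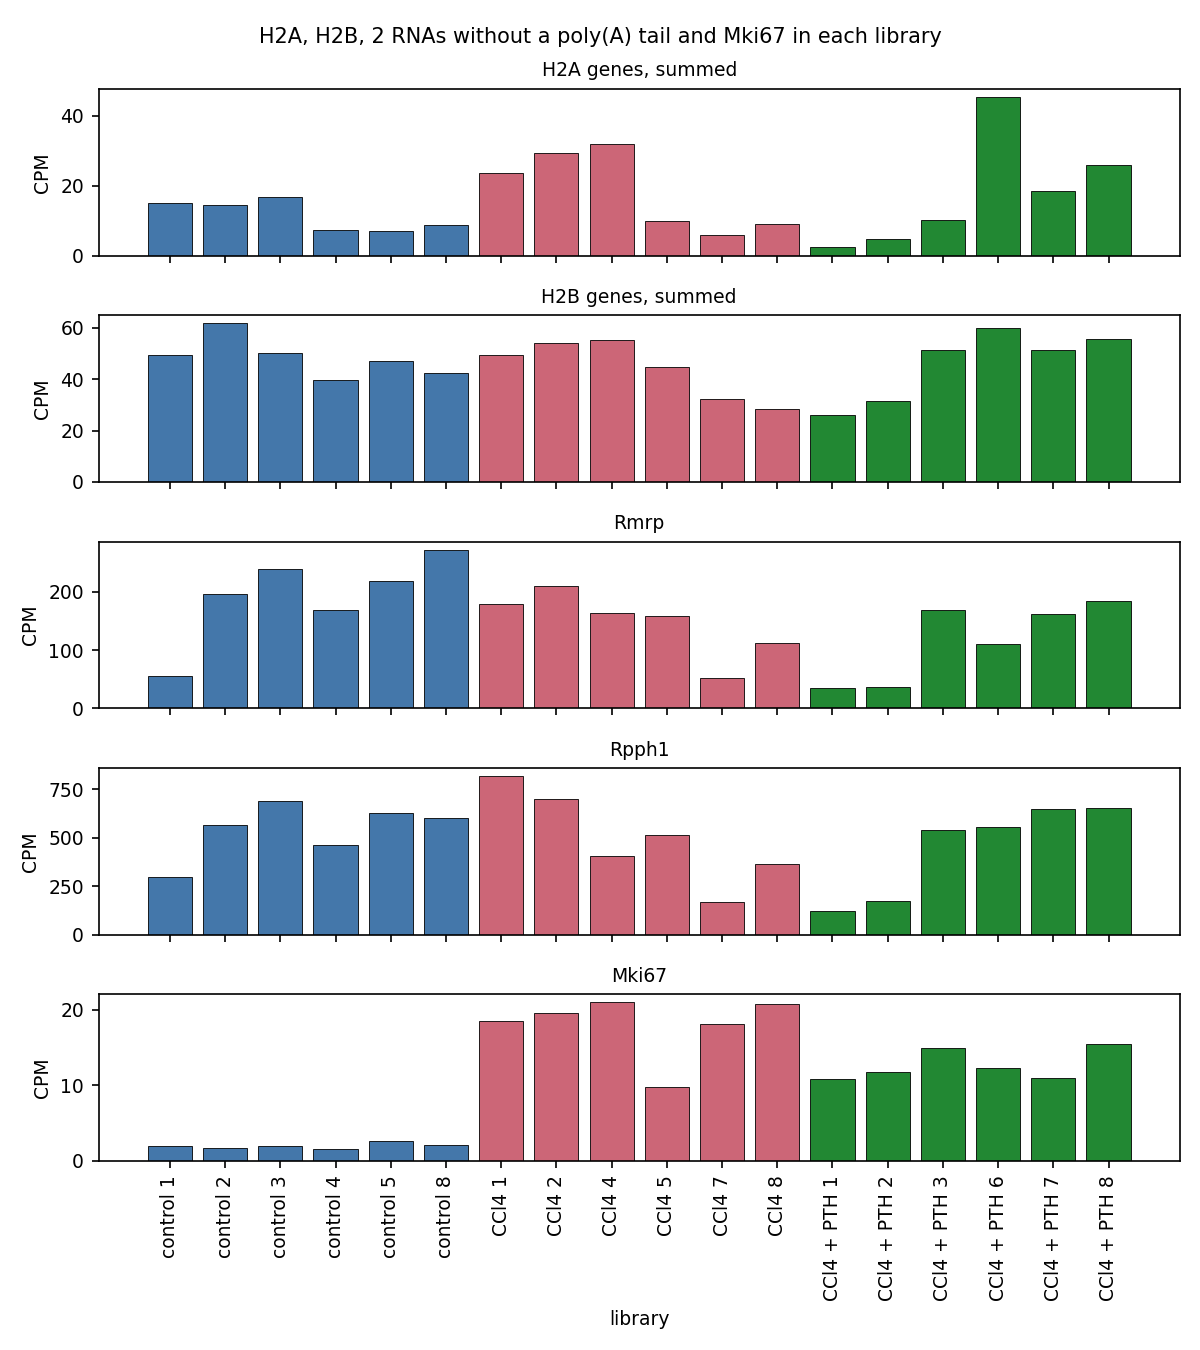
CPM per library of the summed H2A genes, the summed H2B genes, Rmrp, Rpph1 and Mki67; each bar is 1 liver, coloured by group. Rmrp and Rpph1 are low in control 1, CCl4 7 and CCl4 + PTH 1 and 2, H2A is low in the last 3 of these but not in control 1, and Mki67 is above all controls in every CCl4 and CCl4 + PTH library.

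The head-to-head pairs let an H2A and an H2B gene be compared at the same place in the genome. Both genes were tested in 13 of the 14 pairs. The spread within groups was wider for the H2A gene in 12 of 13, with a median SD of 1.66 for H2A and 0.70 for H2B on the log2 scale. The exception was Hist3h2a with the pseudogene Hist3h2bb-ps (0.46 and 1.07). The partners also differed in level, and the pairs were not compared at like level. Except for Hist3h2a and Hist2h2ac, the H2A gene had the lower mean CPM (0.593 for Hist1h2ac and 27.2 for Hist1h2bc). Many H2A copies share windows, so the pairs are not independent observations. In the Hist1h2ah and Hist1h2bk pair, whose shared window is shown above, the highest CCl4 liver exceeded the lowest 132 times for Hist1h2ah and 2.99 times for Hist1h2bk. The lowest Hist1h2ah value was 0.0184 CPM, in CCl4 7, so that ratio rests on a value near the floor. Of the Hist1h2ah windows 84.8% also occur in another histone gene. For Hist1h2ap and Hist1h2br the ratios were 43.3 and 2.60 times, and for Hist1h2ac and Hist1h2bc 9.45 and 1.52 times. In CCl4 against control, 2 H2A and 10 H2B genes of the 13 pairs passed with a rise or, for Hist1h2bc, a fall. Of all genes 47.4% passed in either direction. The estimates of the partners were alike in size in some pairs: 1.82 ± 1.06 for Hist1h2ah and 1.51 ± 0.31 for Hist1h2bk. They differed in others, with 0.80 ± 0.64 for Hist1h2ac and -0.70 ± 0.19 for Hist1h2bc, which was not tested as a difference.

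**Figure D4:**
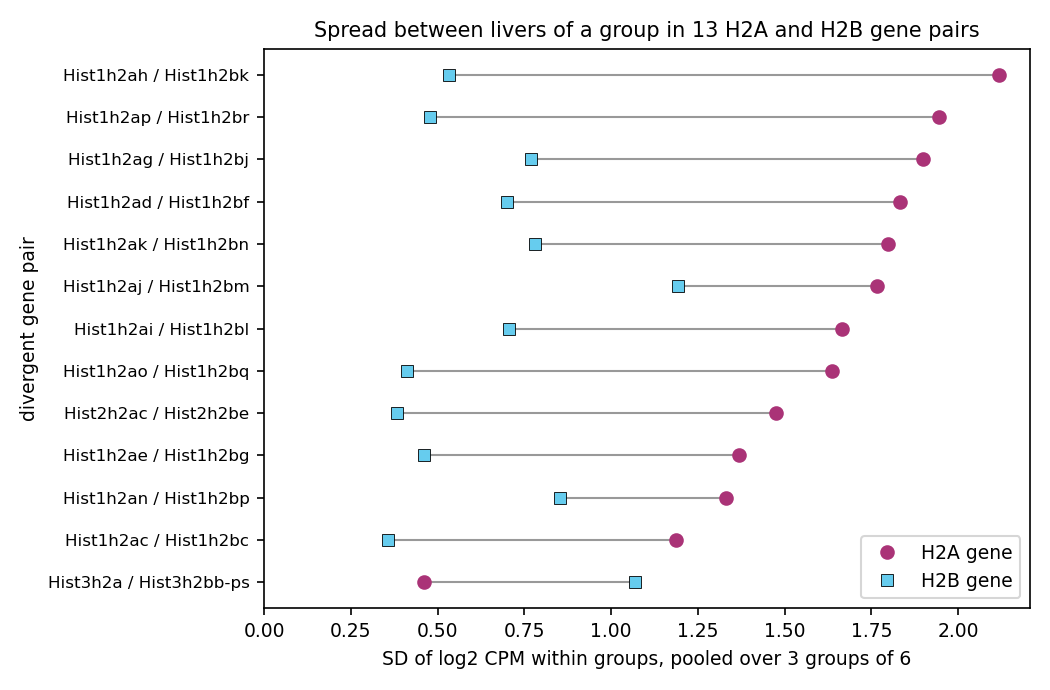
SD of log2 CPM within groups (pooled over 3 groups of 6) for the H2A gene (circle) and the H2B gene (square) of 13 head-to-head pairs. The H2A gene lies to the right in 12 pairs, and Hist3h2a with Hist3h2bb-ps is the exception.

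Gene models also differed with the spread, in classes set after seeing the data. The 22 genes whose model runs over 100 bases past the stem-loop had a median SD of 0.73, the 21 whose model ends within 100 bases had 0.997, and the 19 with no stem-loop in the model had 1.07. In CCl4 against control 4, 7 and 12 of these rose (18.2%, 33.3% and 63.2%), beside 26.3% of all genes. The first class was thus below the share of all genes. The median log2 fold changes were 0.58, 1.202 and 1.73. The 18 genes with over 50% of windows shared had a median SD of 1.29 and the other 44 had 0.81. The type, the shared windows and the model's length vary together across these genes, so their parts cannot be told apart.

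The replacement histones are made throughout the cell cycle, mostly from ordinary poly(A) messages. Of 10 tested, 2 rose and 2 fell in CCl4 livers (median log2 fold change 0.12), near the 26.3% and 21.2% of all genes. H3f3b, which encodes histone H3.3, rose from 62.5 ± 5.73 to 99.9 ± 5.29 CPM (SD, n = 6; log2 fold change 0.68 ± 0.08, edgeR adjusted p = 3.8e-06). H2afv, an H2A.Z gene, fell by 0.79 ± 0.17 on the log2 scale and was the only one of the 10 that passed in CCl4 + PTH against CCl4 (0.55 ± 0.17, adjusted p = 0.035). H1f0, the linker histone of resting cells, fell by 0.39 ± 0.15 (adjusted p = 0.046). H2afz (0.11 ± 0.10), H2afx (0.54 ± 0.37) and Cenpa (0.45 ± 0.20), the centromere H3, did not pass.

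Of 17 genes that transcribe, cut or bind histone messages, 4 rose and 3 fell in CCl4 livers (median 0.12), again near the 26.3% and 21.2% of all genes. None passed in CCl4 + PTH against CCl4, where 12.1% of all genes did. Slbp had 5.45, 6.21 and 7.29 CPM in the lowest, median and highest control liver and 5.18, 6.71 and 10.1 CPM in CCl4 livers, and the difference of 0.15 ± 0.15 did not pass. Npat, which switches on histone genes at the start of S phase, rose by 0.26 ± 0.10 (edgeR adjusted p = 0.034). Lsm10, of the U7 particle that cuts histone messages, fell by 0.74 ± 0.13 (adjusted p = 1.0e-04), and Zfp473, a U7-associated zinc finger protein, rose by 2.32 ± 0.58 from 0.0667 CPM. Of 24 histone chaperones, 9 rose and 2 fell in CCl4 livers, beside the same 26.3% and 21.2% of all genes. Among them Hjurp, the Cenpa chaperone, fell by 1.08 ± 0.13 and Mcm2 rose by 1.27 ± 0.26.

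Of 36 genes of DNA replication and S phase, 17 rose and 6 fell in CCl4 livers (median log2 fold change 0.40), beside 26.3% and 21.2% of all genes. Only 1 rose in CCl4 + PTH against CCl4, where 7.1% of all genes rose and 4.95% fell. Mcm6 (1.88 ± 0.18) and Mcm5 (1.22 ± 0.32), of the replicative helicase, rose, and Pcna, the sliding clamp, rose by 0.30 ± 0.11. Rrm2 (0.90 ± 0.38) and Ccne2 (0.11 ± 0.23) did not pass. E2f8, a repressor of S-phase genes, fell by 2.63 ± 0.28, and Tk1 fell by 0.89 ± 0.20 and rose in CCl4 + PTH against CCl4 (0.74 ± 0.20, edgeR adjusted p = 0.020). Of 20 mitosis genes, 19 rose and none fell (median 2.76). Mki67 rose by 3.16 ± 0.18 and was lower by 0.50 ± 0.16 with PTH than with CCl4 alone (adjusted p = 0.047), the only mitosis gene that passed there.

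Markers of other cells moved with CCl4 as well. Their counts stand beside 26.3% of all genes that rose and 21.2% that fell. Of 8 macrophage markers 7 rose, of 7 tested T and NK cell markers 6, of 6 B and plasma cell markers 6, of 8 tested neutrophil markers 7, of 5 bile duct markers 5 and of 6 stellate cell markers 4, while 5 of 7 hepatocyte markers fell. The summed macrophage level was 112 to 179 CPM in control, 306 to 659 CPM in CCl4 and 219 to 418 CPM in CCl4 + PTH livers. T and NK cell markers summed to 1.36 to 2.69, 2.22 to 27.1 and 0.94 to 9.42 CPM, B and plasma cell markers to 2.39 to 5.55, 8.96 to 19.7 and 6.33 to 29.5 CPM, and neutrophil markers to 0.52 to 1.11, 3.95 to 99.4 and 4.59 to 189 CPM. Mmp8 was at 0 in every control liver. Bile duct markers summed to 11.9 to 26.4, 90.8 to 173 and 58.3 to 253 CPM, and stellate cell markers to 111 to 132, 288 to 485 and 230 to 526 CPM. Of 5 endothelial markers 3 rose and 1 fell, and of 7 tested red cell precursor markers 1 rose and 2 fell. The part of these cells in the histone values was not tested.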

How the data were processed

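RNA of 18 mouse livers was sequenced after removal of ribosomal RNA with a NEBNext kit as 150-base pairs, per the labels' protocols. Bowtie2 2.5.1, StringTie 2.1.5, HISAT2 2.2.1, cutadapt 4.2, FastQC 0.11.9 and GRCm38 appear, without a role, among the tools and builds of the submitters' processing notes. The counter, annotation, strand setting and handling of reads that match several copies are not stated in any label. Values are unscaled estimated counts for each gene as deposited, a unit read from the numbers and identifiers in the table. Rounding changed 0 values.

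The histone genes, gene lists and tests were chosen with earlier results of these data known. All genes were fitted together in R 4.3.3 with edgeR 4.0.16 (filterByExpr with a minimum count of 10, TMM, robust quasi-likelihood F test, groups only), and p-values were adjusted by Benjamini-Hochberg over all 21840 genes tested, with a threshold of 0.05. CPM are TMM-scaled, log2 CPM use a prior count of 2, and SE is the log2 fold change over the root of F. The code was tested on simulated data. Alternatives, among them DESeq2, are in the closing section. TPM used exon lengths of the GENCODE M21 annotation, which held 54723 of the 54752 identifiers and all 70 histone genes. Libraries in a group differed far beyond sampling noise, by a chi-square per gene of 58.2 or more in 45 pairs. Animals were separate per the labels. Same-numbered livers did not deviate together, and the replicate block is given in the closing section.

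Genes named were, per type, the 3 with the highest mean CPM and the lowest and highest estimate, and those with the smallest p: 5 in each direction, 3 for CCl4 + PTH against control. For the other lists they were the 2 with the smallest p in CCl4 against control and in CCl4 + PTH against CCl4, and genes followed whatever their p, such as Slbp, Mki67 and Pcna. Others are named to complete a count. The few genes outside this rule were chosen after their values were seen.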

Additional observations from a re-analysis of the deposited data

Results flagged for a closer look

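In a group of 6 livers, a highest or lowest value that stood apart from the rest by a larger part of the group's whole range than Dixon's 95% limit was picked out. It was looked for in 102 groups of values, covering the type sums, the H2A to H2B ratio and the genes chosen for naming, and chance alone picks about 1 in 20 groups. There were 6 such values, each the highest of its group. Hist2h2aa1 was 8.96 CPM in control 3 and 0 in the other control livers, and 22.4 CPM in CCl4 + PTH 6 with 1.16 CPM in the next liver. Hist2h2ab was 0.626 CPM in control 5 (next 0.243) and 0.264 CPM in CCl4 + PTH 7 (next 0.0681). Hist2h4 was 8.25 CPM in control 1 (next 5.41), and Hist3h2ba was 0.0811 CPM in control 1 and 0 in the other control livers.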

How the results depend on the processing

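Counts of histone genes that rose or fell were recomputed under other settings, and no gene past the threshold turned its direction under any of them. Signs of genes that passed in neither fit did flip, in up to 6 genes for CCl4 against control, 19 for CCl4 + PTH against CCl4 and 7 for CCl4 + PTH against control. By library size only, 40 rose and 0 fell in CCl4 against control, and 26 rose and 0 fell in CCl4 + PTH against control, beside 51.6% and 43.8% of all genes that rose; the log2 ratio of the type sums to control was then 0.87 (H1), 0.46 (H2B), 0.45 (H4) and 0.73 (all types) with CCl4, and 0.70 (H1) and 0.41 (H2B) with CCl4 + PTH. With no filter, 0 fell in CCl4 + PTH against control. Size factors of the DESeq2 type, ribosomal RNA loci left out and DESeq2 kept each count within 1.5 times. Leaving out each library in turn gave 19 to 25 that rose and 2 to 4 that fell in CCl4 against control, 0 to 1 and 0 in CCl4 + PTH against CCl4, and 9 to 25 and 0 to 3 in CCl4 + PTH against control. In the last, 0 fell without control 4, control 5 or CCl4 + PTH 1, 2 or 3, and 1 without control 2, 3 or 8 or CCl4 2 or 4. The low counts of 9 that rose there, without control 4 or CCl4 + PTH 8, were near the 15.3% and 14.6% of all genes.

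Added after seeing the data, leaving out the 4 libraries under 100 CPM of Rmrp gave 42 that rose in CCl4 against control, 1 (Hist1h2bc) in CCl4 + PTH against CCl4, and 29 that rose and 1 that fell in CCl4 + PTH against control. The covariate fit gave 1 that rose in CCl4 + PTH against CCl4. Without Hist2h2aa1, the highest CCl4 + PTH liver exceeded the lowest 10.5 times in the H2A sum, against 18.3 times with it. The cause was not tested.

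Livers of different groups share label numbers. In 13 same-numbered pairs the correlation of deviations from the group means was -0.21 to 0.08, against -0.24 to 0.26 in 95 other pairs, so the numbers do not pair the livers. With the replicate number as a block, 17 rose and 1 fell in CCl4 against control and 7 rose and 0 fell in CCl4 + PTH against control, beside 22.3% and 11.5% of all genes that rose. The 7 of 62 are thus near the share of all genes. No histone gene passed in CCl4 + PTH against CCl4 with this block, beside 0.19% of all genes in each direction. The median SE of the log2 fold change in CCl4 against control was 0.91 for H2A and 0.26 for H1. Whether depth or the spread between livers set it was not tested, and at like level the spread was wider for H2A.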
